A study of Mus musculus with 8 samples.

Results

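The 10 genes described here were Nfe2l2, Keap1, Hmox1, Nqo1, Gclm, Gclc, Txnrd1, Srxn1, Slc7a11 and Sod2, out of 21938 protein-coding genes in the annotation. They were chosen by name, as the regulator NRF2, its inhibitor and well-known oxidative stress defence genes, with earlier results of these data known. For each gene the locus was the annotated gene body with 20 kb on each side. Open chromatin was profiled by ATAC-seq, which tags DNA that a transposase can reach, in SN4741 cells, a single mouse line made from embryonic substantia nigra, labelled as wild type and as neural precursor cells. The line carries, in both groups, a transgene in which the tyrosine hydroxylase promoter is joined to a temperature-sensitive T antigen, and the study describes its karyotype as unstable. One group of 4 libraries came from cells growing at the permissive temperature of 37 °C in 10% serum. The other group of 4 came from cells moved to the non-permissive 39 °C in 0.5% serum, 24 h after passage, and kept there for 48 h. Temperature and serum therefore changed together and cannot be told apart in any comparison below. Each library was made from 50000 cells with 12 cycles of amplification, and nothing in the labels says that the replicates were separate cultures, so p-values measure only the spread between these libraries.

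NRF2, encoded by Nfe2l2, is a transcription factor that turns on genes of detoxification and antioxidant defence. In unstressed cells KEAP1 holds it and hands it to a ubiquitin ligase for destruction, and oxidants or electrophiles that modify KEAP1 let NRF2 build up. It then pairs with small MAF proteins and binds antioxidant response elements, short DNA sites that overlap in sequence with those of AP-1. Dopaminergic neurons of the substantia nigra carry a heavy oxidant load, and this pathway is widely studied in them for that reason.

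The elements were looked for in the open regions of the 10 loci. Overlapping peaks were joined across the 8 libraries into regions, and those called by at least 2 libraries were kept, which gave 87 regions in the 10 loci of 84777 in the genome. The core TGACNNNGC, read on both strands, lay within 100 bp of the summit in 19 of the 87 regions, or 21.8% (Wilson 95% interval 14.5 to 31.6%, counting error only), and in 12.7% of all regions. Within 250 bp the shares were closer, at 26.4% and 23.3%. Each of the 10 loci held at least 1 such region, and the share of all loci that did was not counted. Of the 19 regions 14 were called in all 8 libraries, as were 6037 of the 10752 regions with the core in the genome. The full string TGACTCAGC, which contains an AP-1 site (TGANTCA), occurred 7 times, in 5 regions of 5 loci. The sequences below are the GRCm38 reference around these matches, with the core in capitals and written so that it reads 5′ to 3′. They are shown because these cores lay within 100 bp of the summit of an open region, with the promoters of the genes taken first and then the best ranked distal regions that held one.
Txnrd1 promoter, chr10:82859098-82859138, minus strand: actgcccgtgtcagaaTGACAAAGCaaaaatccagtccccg
Gclm promoter, chr3:122245636-122245676, minus strand: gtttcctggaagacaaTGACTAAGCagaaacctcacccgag
Srxn1 promoter, chr2:152105536-152105576, minus strand: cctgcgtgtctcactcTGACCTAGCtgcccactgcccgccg
Sod2 promoter, chr17:13007912-13007952, minus strand: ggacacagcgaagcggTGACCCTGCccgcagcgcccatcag
Keap1 promoter, chr9:21238824-21238864, plus strand: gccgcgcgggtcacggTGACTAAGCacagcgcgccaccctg
Sod2 intronic start site, chr17:13010026-13010066, minus strand: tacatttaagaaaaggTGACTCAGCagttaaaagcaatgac
Gclc upstream, chr9:77750729-77750769, minus strand: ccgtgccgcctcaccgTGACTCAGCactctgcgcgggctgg
Hmox1 far upstream, chr8:75083933-75084030, minus strand: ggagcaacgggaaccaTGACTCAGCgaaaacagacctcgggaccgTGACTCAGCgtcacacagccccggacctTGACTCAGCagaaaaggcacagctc
Hmox1 near upstream, chr8:75089682-75089722, minus strand: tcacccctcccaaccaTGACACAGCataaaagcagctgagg
Slc7a11 intron, chr3:50438217-50438257, plus strand: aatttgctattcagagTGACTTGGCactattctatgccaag

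The matches were most frequent at the promoters of the genes themselves. Of the 13 regions no more than 1 kb from a start of transcription (TSS) of a member, 6 held the core, or 46.2%, against 12.0% of all regions within 1 kb of a TSS. Of the 62 regions of the loci that lay more than 1 kb from every TSS, here called distal, 11 held it, or 17.7%, against 12.9% of all distal regions. Within 250 bp of the summit the distal shares were 22.6% and 23.1%. The AP-1 site was found in 17 of the 87 regions, or 19.5%, and in 29.0% of all regions. RefSeq (GRCm38.p6) gives windows from 250 bases before to 50 after each start, and 8 of the 10 genes were listed, with 10 windows. The core was present for 4 of these genes (Gclm, Nfe2l2, Srxn1 and Txnrd1). Of all 32851 windows 12.4% held it, which is a share of windows and not of genes, so the figures differ in unit. The Nqo1 promoter region had no core near its summit. Over its whole 6830 bp it held the wider core TGANNNNGC 10 times, 4 of them also fitting TGACNNNGC, and the match nearest the summit was TGAGTCGGC at chr8:107403633-107403641, 376 bp away. These matches are letters in a window and were not measured as binding.

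All 10 genes had a promoter peak in all 8 libraries, as did 59.9% of the 21938 coding genes. Most of these peaks ranked high. Within each library peaks were ranked by the −log10 of their q-value, and a percentile of 99 means that 1% of that library's peaks ranked higher. The median promoter percentile was 95.34 for the 10 genes, 93.08 for 55 other genes of the pathway and 89.96 for the 13145 coding genes with a promoter peak in every library.

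The highest ranks belonged to the thioredoxin reductase gene, the regulator itself, sulfiredoxin and Gclm, whose values are given with the temperature comparison. Txnrd1, which encodes the enzyme that recharges thioredoxin, had its strongest promoter peak (chr10:82857511-82865299) at an internal start, +25.2 kb from the annotated gene start, with percentiles of 99.75, 99.64, 99.56 and 99.84 at 37 °C and 99.38, 99.69, 99.57 and 99.36 at 39 °C. The Nfe2l2 promoter (chr2:75694972-75705767) lay between 99.16 and 99.66 at 37 °C and between 98.39 and 99.65 at 39 °C. Both genes thus stood within the top 2% of peaks in every library, and their groups overlapped. Srxn1 (chr2:152104253-152110694), whose product reduces hyperoxidised peroxiredoxins, ranged from 98.43 to 99.29 at 37 °C and from 98.52 to 98.88 at 39 °C. Sod2 (chr17:13006825-13009342), the superoxide dismutase of mitochondria, ranged from 95.87 to 97.87 and from 95.5 to 96.85. Gclc (chr9:77753832-77757828), the catalytic subunit of the enzyme that starts glutathione synthesis, ranged from 93.59 to 94.78 and from 93.57 to 95.08. Each of these genes also overlapped between the temperatures.

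Lower ranks belonged to haem oxygenase, the inhibitor and the cystine transporter. Hmox1 (chr8:75092681-75094513), which degrades haem, ranged from 89.65 to 92.68 at 37 °C and from 88.19 to 91.21 at 39 °C. Keap1 (chr9:21237007-21240268) ranged from 88.62 to 89.83 and from 86.97 to 90.5. Slc7a11 (chr3:50442842-50444302), the cystine transporter that feeds glutathione synthesis, was the weak promoter of the set. Its percentiles were 60.33, 50.27, 51.76 and 64.48 at 37 °C and 52.35, 55.35, 51.92 and 33.23 at 39 °C, where replicate 4 stood apart at the bottom. The fold enrichment of its peak over the library background was 4.95 to 10.3 across the 8 libraries, while that of Txnrd1 was 93.5 to 176.

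Between the temperatures, 2 of the 10 genes had promoter percentiles that did not overlap. Nqo1 (chr8:107399342-107406171), a quinone reductase and a classic NRF2 target, had promoter percentiles of 95.8, 94.44, 94.49 and 96.72 at 37 °C and 92.24, 93.16, 92.07 and 90.84 at 39 °C. All 4 values at 39 °C were below all 4 at 37 °C. The means were 95.36 ± 1.1 and 92.08 ± 0.953 (SD, n = 4 each), a difference of -3.29 points (exact permutation test, two-sided, p = 0.0286, adjusted p = 0.054 by Benjamini-Hochberg over 13145 genes). Gclm (chr3:122244659-122248014), the modifier subunit of the glutathione-synthesis enzyme, went the other way. Its percentiles were 98.72, 98.78, 98.79 and 98.81 at 37 °C and 98.87, 99.11, 99.15 and 98.93 at 39 °C, all higher, a difference of 0.241 points (exact permutation p = 0.0286, adjusted p = 0.054). Over all 13145 genes, 52.4% were lower at 39 °C in every library and 0.51% were higher. With 4 libraries a side the exact test cannot give a p below 0.0286, and no gene had an adjusted p under 0.05, although 6955 had an unadjusted p under 0.05. By limma on the logit of the percentile, Nqo1 was lower with an adjusted p of 0.00679 and Gclm higher with an adjusted p of 0.0499, where 57.7% of genes were called lower and 0.624% higher. With the replicate number as a block in limma Gclm lost this call (adjusted p = 0.144) and Nqo1 kept it (adjusted p = 0.0155). Then 38.6% of genes were called lower and 0.464% higher.

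The general fall has to be read with the length of the lists. The lists at 37 °C held 74026 to 92013 peaks and those at 39 °C 54845 to 68410, and in a longer list the same rank gives a higher percentile. Over all genes the median difference was -2.51 points, and 93.4% of genes had a difference below 0. The 10 genes had a median difference of -0.248, with 9 below 0. They also ranked nearer the top, where a percentile has less room to move, and the part of this in their difference was not tested. On the logit scale of limma, which stretches the top, Nqo1 (-0.588), Txnrd1 (-0.535) and Slc7a11 (-0.352) differed by more than the median of all genes, -0.319, and the other 7 lay above it. The place of Slc7a11 leans on 39 °C replicate 4, at a percentile of 33.23 against 51.92 to 55.35 in the others at 39 °C. When only the 54845 highest peaks of each list were ranked, the median over 12894 genes was -0.106, with 15.4% of genes lower at 39 °C in every library and 7.75% higher. Then 7 of the 10 members had a difference above 0, as had 46.0% of genes, and their median was 0.473.

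On those lists of equal length 3 members had groups that did not overlap. Nqo1 was still lower at 39 °C, by -2.32 points (93.2 ± 1.03 and 90.88 ± 0.727, SD, n = 4 each; exact permutation p = 0.0286, adjusted p = 0.123). Gclm was higher, with 98.17 ± 0.182 and 98.87 ± 0.143. Keap1, the inhibitor, was higher as well, with 82.49, 85.68, 86.28 and 82.29 at 37 °C against 87.95, 87.88, 88.15 and 86.97 at 39 °C, a difference of 3.55 points (exact permutation p = 0.0286, adjusted p = 0.123). Its groups overlapped with all peaks, where the difference was -0.117. The direction for Keap1 thus changed with the setting, and the cause was not tested. The smallest adjusted p over all genes was 0.123 on these lists.

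**Figure D1:**
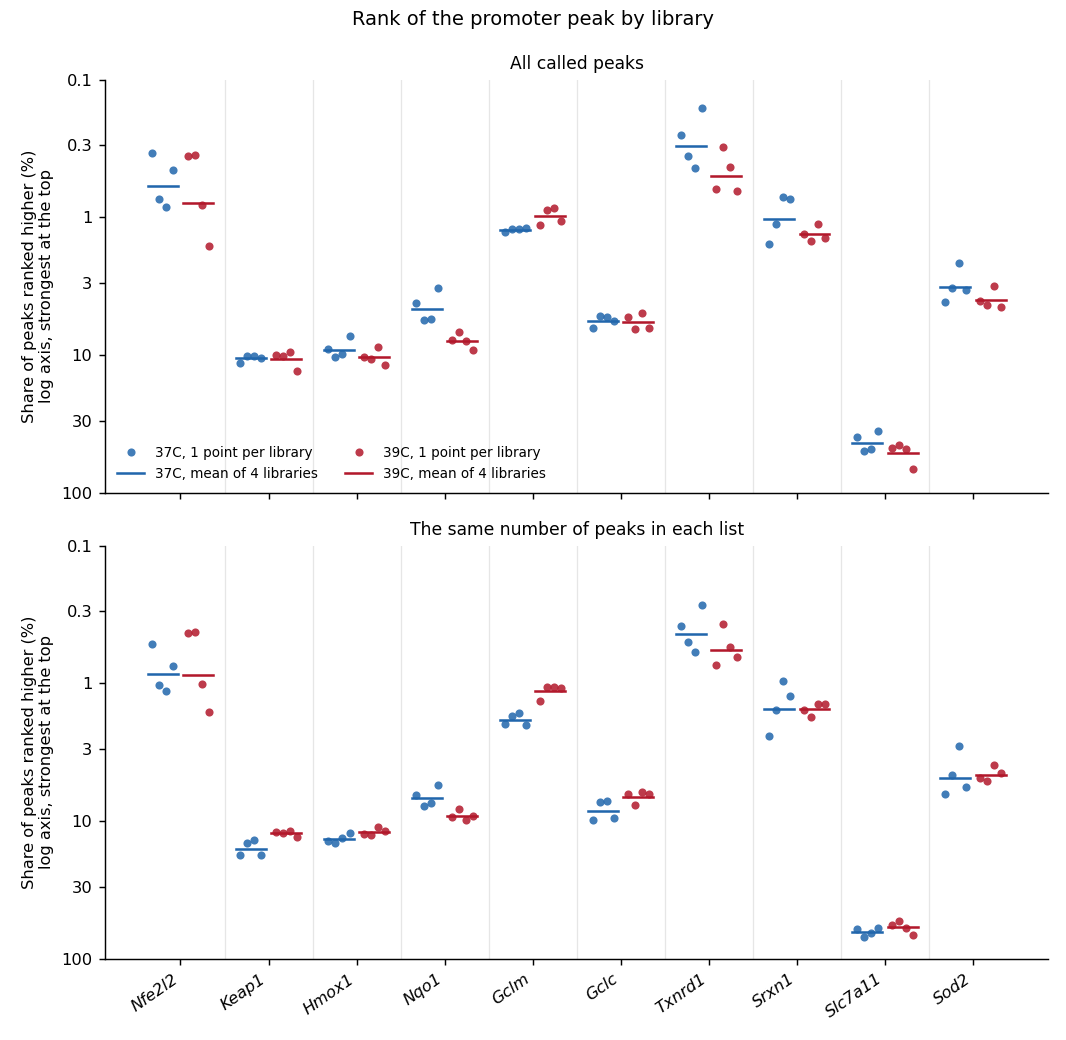
Rank of the promoter peak of each gene, as the percent of peaks of the same library that ranked higher (log axis, strongest at the top), with 1 point per library and a line for the mean of 4 libraries in blue for 37 °C and red for 39 °C. The upper panel uses all peaks and the lower panel the 54845 highest peaks of each list. Nqo1 is lower at 39 °C and Gclm higher in both panels, Keap1 is higher in the lower panel, and Slc7a11 lies far below the rest.

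**Figure D2:**
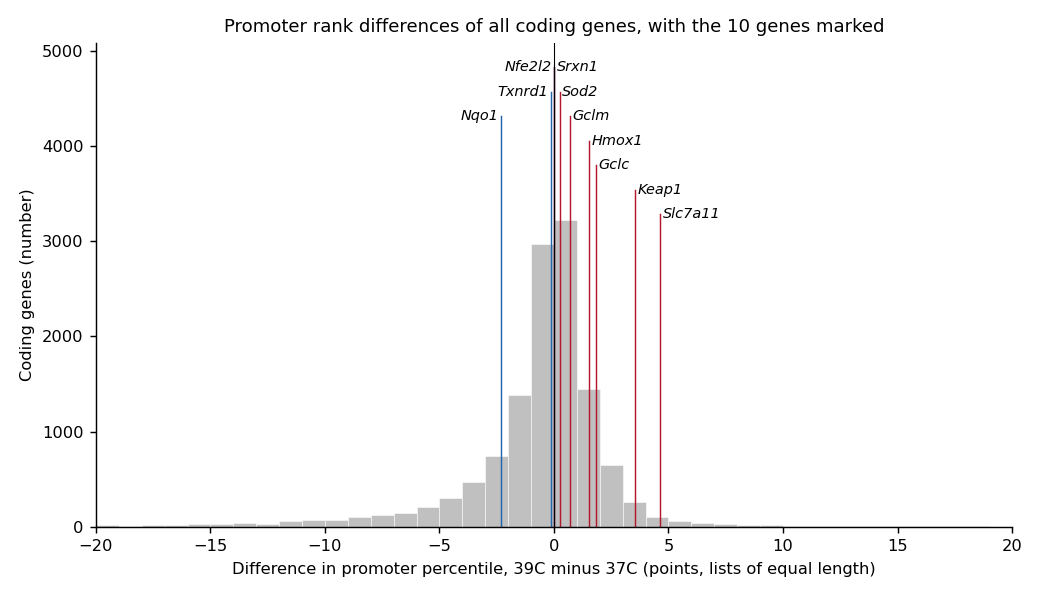
Number of coding genes by the difference in promoter percentile (39 °C minus 37 °C, lists of equal length, bins of 1 point), with the 10 genes marked by lines, blue below 0 and red above. Of 12894 genes 111 lay beyond 20 points and are not drawn. The lines run from Nqo1 at -2.32 to Slc7a11 at 4.64.

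Promoter peaks were mostly narrower at 39 °C, and 2 members had groups that did not overlap. The width of the Keap1 peak was 3262, 2943, 2847 and 3099 bp at 37 °C and 2818, 2645, 2693 and 2241 bp at 39 °C, a difference of -438 bp. The width of the Sod2 peak was 2518, 2308, 2033 and 2320 bp against 1966, 2009, 2016 and 1802 bp, a difference of -346 bp. Both had an exact permutation p of 0.0286 and an adjusted p of 0.122. No member was wider in every library. Over all genes 23.4% were narrower at 39 °C in every library and 0.129% were wider, and the median difference was -280 bp, near the -330 bp of the 10 genes. Among libraries under 100 M fragments the median over all genes was -98.2 bp, with 23.6% narrower and 2.44% wider in every library. The widest peak belonged to Nfe2l2, at 4680 to 10747 bp at 37 °C and 7787 to 10796 bp at 39 °C. The Txnrd1 peak measured 7130 to 7789 bp at 37 °C and 7158, 3637, 3996 and 6281 bp at 39 °C. In the 39 °C libraries of replicates 2 and 3 the open stretch was called as separate peaks. Leaving out 1 library brought further members into the count: Nqo1 and Txnrd1 were also narrower in every library without 37 °C replicate 3, Gclm and Txnrd1 without 39 °C replicate 1, Srxn1 and Slc7a11 without 39 °C replicate 2, and Srxn1 without 37 °C replicate 2. The share of all genes narrower in every library rose as well, to 49.1%, 33.5%, 27.7% and 26.5% in these 4 settings. Srxn1 had a width of 6417 bp in 37 °C replicate 1 and of 2035 to 2865 bp elsewhere.

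Away from promoters, the loci of Keap1, Nqo1 and Txnrd1 held fewer peaks at 39 °C in every library. The Keap1 locus had 7, 8, 6 and 6 distal peaks at 37 °C and 3, 2, 2 and 2 at 39 °C. The Txnrd1 locus had 18, 16, 14 and 18 against 11, 11, 9 and 6. The Nqo1 locus had 7, 5, 5 and 9 against 4, 3, 3 and 4. The differences were -4.5, -7.25 and -3.0 peaks (exact permutation test, p = 0.0286 and adjusted p = 0.145 for each). Of 16260 loci tested, 19.3% had fewer distal peaks at 39 °C in every library and 0.418% had more, and the median difference was -0.75 peaks against -1.38 for the 10 genes. With lists of equal length Keap1 alone of the 9 members still tested stayed lower, with 3, 3, 4 and 3 peaks against 2, 0, 0 and 2, where 4.86% of loci were lower and 4.12% higher. Nqo1 and Txnrd1 then differed by -0.25 and -0.5 peaks and their groups overlapped.

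The Gclc locus was the one with more distal peaks at 39 °C on average. It had 5, 3, 3 and 4 at 37 °C and 8, 7, 6 and 3 at 39 °C, so the groups overlapped through 39 °C replicate 4 (difference 2.25, exact permutation p = 0.171, adjusted p = 0.403). Without that library the locus was higher at 39 °C in every library left, by 3.25 peaks, where 1.31% of loci were higher. The library left out was the one that made the groups overlap, so no test is given. The regions involved were weak. They lay at -7.96, +5.41, +18.6 and +41.7 kb from the gene start, were called in 1, 1, 0 and 1 libraries at 37 °C and in 2, 2, 2 and 3 at 39 °C, and had mean percentiles of 16.3, 6.21, 3.78 and 3.85. On lists of equal length the Gclc locus had 3 distal peaks in every library but 39 °C replicate 1, which had 4.

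The other 6 loci overlapped in the number of distal peaks. Their ranges at 37 °C and 39 °C were 8 to 9 and 6 to 8 for Nfe2l2, 4 to 7 and 2 to 4 for Hmox1, 2 to 5 and 2 to 3 for Srxn1, and 8 to 11 and 5 to 9 for Slc7a11. The Sod2 locus had 1 to 3 and 1, and the Gclm locus 0 to 1 and 0. Gclm and Sod2 no longer overlapped without 37 °C replicate 2, where 23.4% of loci were lower, and Nfe2l2 without 39 °C replicate 1, where 21.6% were. By bases in place of peaks 7 loci were lower at 39 °C in every library, where 32.3% of all loci were lower and 0.701% higher. The largest such difference was at Txnrd1, with 33.0, 22.8, 17.2 and 30.7 kb at 37 °C and 13.5, 13.7, 10.6 and 5.22 kb at 39 °C. Nfe2l2 followed, with 16.1, 16.0, 14.0 and 15.2 kb against 8.65, 8.25, 7.86 and 7.72 kb. With lists of equal length 5 of 9 members were lower by bases, among them Txnrd1 and Nfe2l2, where 22.3% of loci were lower and 2.63% higher.

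**Figure D3:**
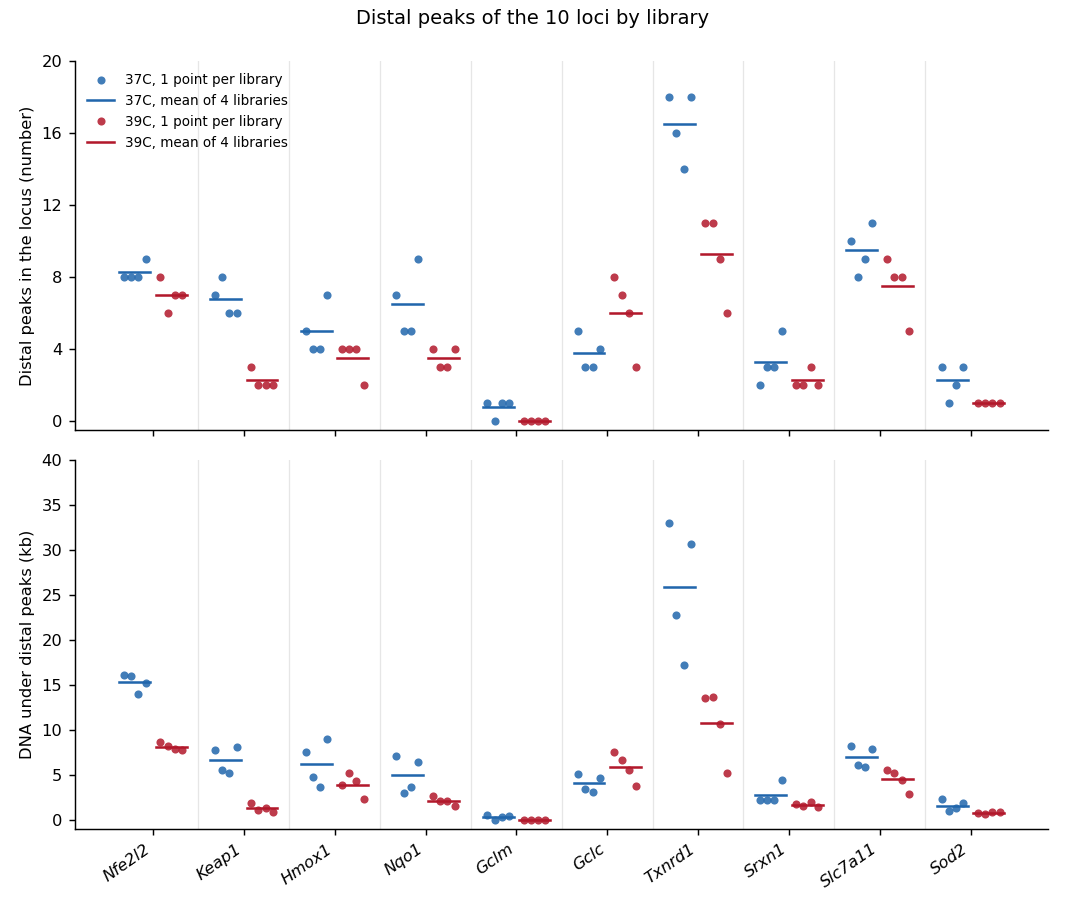
Number of distal peaks (upper panel) and kb of DNA under them (lower panel) in the locus of each gene, with 1 point per library and a line for the mean of 4 libraries, blue for 37 °C and red for 39 °C. The groups of Keap1, Nqo1 and Txnrd1 do not overlap in number, and Gclc is the locus with a higher mean at 39 °C.

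Depth and library moved with these counts. The caller kept 49.8 to 169 M fragments (M for mega) at 37 °C, where replicates 1 and 4 were the deep ones, and 52.7 to 71.2 M at 39 °C. The distal peaks of the 10 loci summed to 66, 56, 55 and 73 at 37 °C and to 50, 44, 43 and 32 at 39 °C. The 37 °C library of replicate 3 had the fewest fragments of all and 55 of these distal peaks. Its list of 74026 peaks was also longer than any at 39 °C, where the longest held 68410. The 39 °C library of replicate 4 had the shortest list and the lowest fold enrichment at all 10 promoters, with a median of 57.4 over the 10 against 77.2 to 109 in the other 7 libraries. The part of depth in these differences was not tested beyond the alternatives given. As a check of the label, promoter peaks were found in all 8 libraries for 5 of 6 neural precursor markers (Nes, Sox2, Vim, Msi1 and Pax6), for 5 of 10 dopaminergic markers (Th, Nr4a2, Pitx3, Foxa2 and En1) and for 2 of 5 markers of other cells (Gfap and Col1a1). The dopaminergic genes Ddc and Slc18a2, and Olig2, had none in any library. In bulk libraries a weaker peak in every cell and a peak in fewer cells cannot be told apart.

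The joined regions were also compared by the libraries that called them. Of the 87 regions, 44 were called in all 8 libraries, 5 in all 4 at 37 °C and none at 39 °C, and 0 in the opposite pattern. This share, 5.75%, was close to the 6.04% of all 84777 regions. The count was 8 without 37 °C replicate 2 and 9 without 37 °C replicate 3, where 7.97% and 10.4% of all regions had this pattern. Regions called only at 39 °C made up 0.314% of all. With lists of equal length 2 of 56 regions were called only at 37 °C, where 2.67% of 59041 regions were, the Txnrd1 region at +42.3 kb and a region at another gene's promoter at -9.13 kb from the start of Keap1. With all peaks, of the other 38 of the 87 regions 32 were called in more libraries at 37 °C and 6 in more at 39 °C. The lists at 37 °C were the longer ones, and this split was not counted over all regions of the genome.

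The 5 regions called only at 37 °C lay in or near 4 of the genes. Within Keap1, 2 introns each held one, at chr9:21231062-21233030 and chr9:21235095-21235808, at +7.43 and +3.89 kb from the gene start. Their percentiles were 16.8, 7.2, 8.33 and 17.0 for the first and 34.4, 21.4, 17.8 and 31.6 for the second. In Txnrd1 the intronic region chr10:82874478-82876740 at +42.3 kb was the strongest of the 5, with 44.8, 41.3, 34.8 and 45.0. Past the end of Hmox1, chr8:75111975-75114607 lay in an intron of Mcm5, a DNA replication helicase gene, with percentiles of 35.4, 8.75, 14.2 and 31.6. Upstream of Nqo1, chr8:107416316-107417063 lay in an exon of its neighbour Nob1, with 21.5, 8.75, 16.0 and 14.6. None of the 5 had the core TGACNNNGC within 100 bp of its summit. The neighbours share the locus window, so such a region may not belong to the member gene.

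One region went the other way in Slc7a11. The intronic region chr3:50396683-50397189 at +46.7 kb was called in 0 libraries at 37 °C and in 3 at 39 °C, with percentiles of 27.9, 40.4 and 28.8, and not in 39 °C replicate 4. Without that library it was the 1 region of the loci called only at 39 °C, where 0.931% of all regions were.

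**Figure D4:**
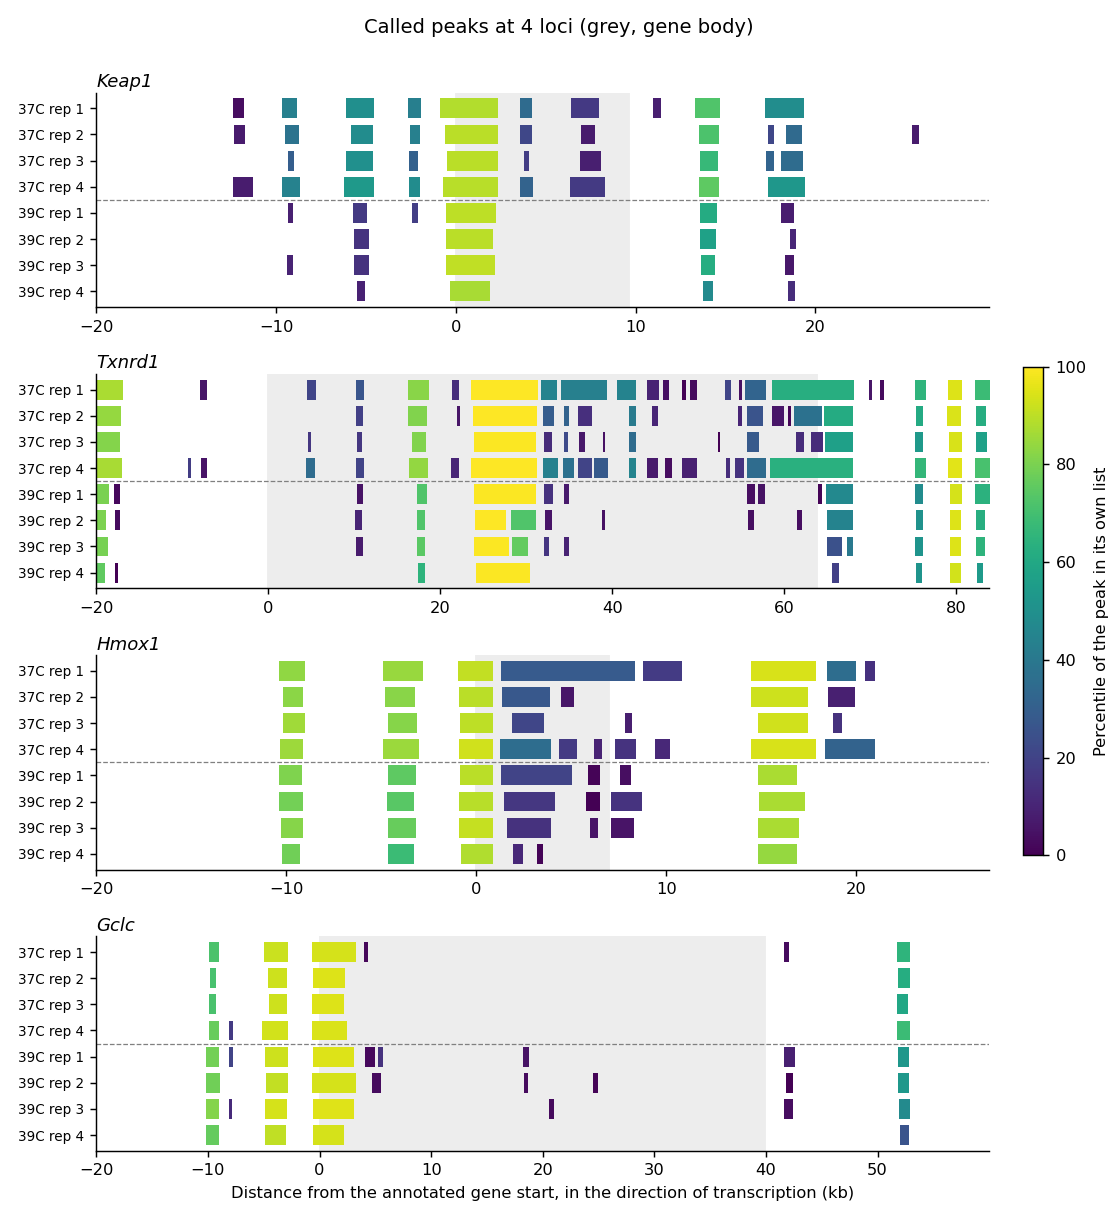
Peaks called in each library at the Keap1, Txnrd1, Hmox1 and Gclc loci, by distance from the annotated gene start in the direction of transcription (kb), with the gene body in grey, 37 °C above the dashed line and 39 °C below. Colour gives the percentile of each peak in its own list. Promoter peaks appear in all 8 rows, intronic peaks of Keap1 and several of Txnrd1 appear only in the 37 °C rows, and the weak peaks inside Gclc appear mostly in the 39 °C rows.

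Hmox1 and Gclc each had a pair of distal upstream regions that were called in all 8 libraries. Mouse Hmox1 is known to be controlled by a pair of upstream enhancers that carry such elements, and the regions lay at -9.66 and -4.0 kb from its start. The far region, whose sequence above holds 3 copies of TGACTCAGC at -7, 21 and 50 bp from the summit, had percentiles of 83.5, 82.8, 85.7 and 85.4 at 37 °C and 80.7, 78.6, 81.7 and 78.3 at 39 °C. The near region had 84.5, 82.2, 82.0 and 84.8 against 75.0, 74.1, 76.9 and 68.3. Both were lower at 39 °C in every library with all peaks, while the Hmox1 promoter overlapped. A second, weak Hmox1 region near a start of the gene, at +3.15 kb, was also lower with all peaks, with 21.1 to 35.4 at 37 °C and at most 20.0 at 39 °C, and was called in only 2 libraries on lists of equal length. Ranked on lists of equal length, the near region was still lower, at 74.5 to 76.2 against 68.3 to 71.2. The far region then overlapped, at 74.7 to 80.6 against 74.6 to 78.3. The call for the far region thus held with all peaks only, and the cause was not tested. The Gclc region at -3.79 kb, with TGACTCAGC centred -1 bp from the summit, overlapped between the temperatures, with 91.9, 92.6, 92.5 and 93.1 at 37 °C and 92.4, 90.9, 93.6 and 90.3 at 39 °C. A second Gclc region at -9.56 kb, which had no core near its summit, also overlapped, with 71.7, 71.0, 71.4 and 76.7 against 78.6, 78.5, 81.3 and 76.3. On the shorter lists the second region was higher at 39 °C in every library, at 56.4 to 61.4 against 74.4 to 76.7, and the first still overlapped.

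Other distal regions with the core were spread through Slc7a11, Txnrd1, Nfe2l2 and Nqo1. The Slc7a11 region at +5.33 kb had percentiles of 57.5 to 67.6 at 37 °C and 54.1 to 67.3 at 39 °C. Far inside that long gene, a region at +419 kb with a copy of TGACTCAGC was lower at 39 °C in every library, with 54.2 to 67.9 against 34.2 to 46.1, and also with lists of equal length, with 35.7 to 46.2 against 31.8 to 34.2. Past the end of Txnrd1, the region at +82.7 kb with TGACTCAGC ranged from 56.7 to 70.8 and from 54.1 to 64.8, and the strongest distal region of that locus, at +80.0 kb, stayed between 93.2 and 95.7 in all 8 libraries. The +5.33 kb region of Slc7a11 and the +82.7 kb region of Txnrd1 were higher at 39 °C in every library when lists of equal length were ranked, at 42.6 to 48.5 against 54.1 to 59.5 and at 41.5 to 51.3 against 54.1 to 56.6. Upstream of Nfe2l2 the regions at -11.9 and -15.8 kb had mean percentiles of 14.4 and 12.9 and were called in 4 libraries each at 37 °C and in 2 and 3 at 39 °C. The Nqo1 region at +14.9 kb was called in 2 libraries at 37 °C and 0 at 39 °C. The second Sod2 region, at an intronic start at +3.25 kb, was lower at 39 °C with all peaks, with 54.7 to 64.1 against 40.3 to 53.8, and overlapped with lists of equal length, with 38.9 to 41.6 against 36.6 to 42.9.

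Within Txnrd1, regions with the core at +34.6 and +56.5 kb were called in all 4 libraries at 37 °C and in 3 and 2 at 39 °C, with mean percentiles of 22.3 and 21.5. The remaining matches were at promoters of neighbours. The region at the start of Hnrnpa3, +45.5 kb from the start of Nfe2l2, stayed between 99.4 and 99.7 in all 8 libraries. The region at -19.6 kb from the start of Txnrd1 had 81.4 to 87.2 at 37 °C and 75.5 to 80.4 at 39 °C, and overlapped with lists of equal length.

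By mean percentile the best ranked distal region held the core near its summit at Hmox1 and Gclc and at none of the other 8 genes. For Txnrd1 it was the region at +80.0 kb described above. At +6.63 kb from the start of Srxn1 the percentiles were 68.2 to 73.9 at 37 °C and 53.4 to 65.5 at 39 °C. At +34.8 kb from the start of Nfe2l2 they were 61.1 to 74.9 and 37.8 to 53.0, at +514 kb in Slc7a11 67.0 to 76.9 and 53.4 to 66.1, and at +37.2 kb from the start of Sod2 58.6 to 64.3 and 43.3 to 56.2. The intronic Nqo1 region at +13.4 kb had 49.5 to 62.0 and 24.8 to 42.6, and the Keap1 region at -5.35 kb, in an exon of S1pr5 and the best ranked of that locus among those called in all 8 libraries, had 48.1 to 53.6 and 9.28 to 17.0. The Keap1 region with the highest mean, 36.5, lay at -2.18 kb and was called in 4 libraries at 37 °C and 1 at 39 °C. With all peaks the Srxn1, Nfe2l2, Slc7a11, Sod2 and Nqo1 regions and the Keap1 region at -5.35 kb were lower at 39 °C in every library. The Txnrd1 region, also called in all 8 libraries, overlapped. Of all regions called in all 8 libraries 54.2% were lower. With lists of equal length the Nfe2l2 region (47.4 to 61.3 against 31.2 to 44.1) and the Nqo1 region (29.0 to 37.8 against 19.6 to 28.5) were still lower, the Srxn1, Slc7a11 and Sod2 regions overlapped, and the Keap1 region was called in 4 libraries at 37 °C and 2 at 39 °C. A second Slc7a11 region without the core, at +55.2 kb, overlapped, with 63.1 to 73.5 at 37 °C and 57.8 to 66.3 at 39 °C. The distal region of the Gclm locus, in an exon at +24.7 kb, was called in 3 libraries at 37 °C and in 0 at 39 °C.

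Ranks of the regions called in all 8 libraries were compared as a measure added after the data were seen. Of the 44 such regions in the loci 25 were lower at 39 °C in every library and 1, the Gclm promoter, was higher. Over 44861 regions of the genome 54.2% were lower and 0.798% were higher. The share among the 10 loci was thus near that of the genome. When lists of equal length were ranked, 41 regions of the loci were called in all 8 libraries, of which 14 were lower, or 34.1%, and 6 were higher, or 14.6%, where 22.5% of 41177 regions of the genome were lower and 15.5% higher. These 14 were all among the 25, of which 8 overlapped on the shorter lists and 3 were no longer called in every library.

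The rest of the pathway was described by 57 further genes in 6 groups. Promoter peaks were present in all 8 libraries for 55 of them and in none for 1, and the promoter percentile was lower at 39 °C in every library for 24 of 55 and higher for 0. That share, 43.6%, was below the 52.4% of all genes, and no test of the difference was made. By group the lower genes were 2 of 12 partners and regulators of NRF2, 7 of 13 genes of glutathione synthesis and use, 6 of 10 thioredoxin and peroxiredoxin genes, 3 of 6 haem and iron genes, 3 of 6 genes of NADPH supply and 3 of 8 superoxide, peroxide and quinone enzymes. The median difference was -2.01 points over the 55 genes and -0.465 in the group of partners and regulators. On lists of equal length 8 of 55, or 14.5%, were lower and 2, or 3.64%, were higher (Gss and Mgst1, named after their values were seen), where 15.4% of all genes were lower and 7.75% higher.

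Among these genes the largest difference was at Slc40a1, the iron exporter ferroportin, whose mean promoter percentile was 62.27 at 37 °C and 40.4 at 39 °C. Nfe2l3, a relative of NRF2, followed with 61.91 and 47.35. The glutathione transferase Gsta4 had 68.92 and 55.7, and Gstp1 90.72 and 84.85. The biliverdin reductase Blvra had 88.4 and 81.93, the quinone reductase Nqo2 89.81 and 84.08, and the carbonyl reductase Cbr1 71.64 and 64.73. Smaller differences of the same sign were found at Gpx8 (80.68 and 75.2), Chac1 (97.12 and 93.04), Prdx2 (89.52 and 84.95), Prdx6 (88.75 and 83.74) and Park7 (90.33 and 85.97). In all 12 the 4 libraries at 39 °C lay below the 4 at 37 °C with all peaks, a separation that the rule naming them used, so no test is given. Osgin1, named after its values were seen, had a larger difference than most of them, with means of 91.8 and 81.62, but its groups overlapped. With lists of equal length 5 of the 12, Gsta4, Gstp1, Chac1, Blvra and Nqo2, were still lower in every library, and the groups of the other 7 overlapped. Among those 7 the difference was -12.0 points at Slc40a1 and -4.1 at Nfe2l3, and 0.0191 and 1.48 at Gpx8 and Cbr1. Regions called in all 4 libraries at 37 °C and none at 39 °C numbered 29 of 414 in the 57 loci, or 7.0%, near the 6.04% of all regions, and none had the opposite pattern.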

How the data were processed

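ATAC-seq peak lists of 8 SN4741 libraries were used, 4 at each temperature. Per the submitters' notes and the study's methods, the authors aligned reads to mm10 (GRCm38) with Bowtie2 2.4.1, removed duplicates and called peaks for each library alone with MACS3 3.0.0a7, without a control library. The deposited lists give a pileup signal in fragments, a fold enrichment (a ratio to one background per library), and the −log10 of the p-value and q-value. They hold no counts per region, so the study's count-based test could not be run here.

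Peaks were assigned to genes of GENCODE M21. The promoter peak was the highest by −log10 q within 1 kb of any TSS of the gene, and distal peaks lay more than 1 kb from every TSS and within 20 kb of the gene body. A percentile depends on list length, so promoter ranks and widths, distal counts and bases, and ranks and presence of regions were also compared on the 54845 highest peaks of every list (region ranks and these bases were added after the data were seen). The exact permutation test over 70 assignments (two-sided) was run for every coding gene with Benjamini-Hochberg adjustment, and limma 3.58.1 (R 4.3.3) on the logit of the percentile was an alternative. A gene was called lower or higher when the 4 values of one temperature all lay beyond the 4 of the other. Code was tested on simulated data. Regions were merged at 1 bp overlap, and their summit was the median over libraries. The 10 genes, the lists of other genes and the motifs were chosen with earlier results of these data known. Named were the members, their best, restricted and motif-bearing regions, and the 12 other pathway genes with the largest rank difference of 36 that qualified by a group difference, a promoter difference of 2 or more libraries or a restricted region. Sequences were 41 bases around each core, promoters first, for at most 12 cores, joined where they overlapped. Depth was 49.8 to 169 M fragments, and intervals cover counting error only. The lists carry no per-region error, so precision rests on the 4 libraries per group.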

Additional observations from a re-analysis of the deposited data

Results flagged for a closer look

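Among 60 groups of 4 libraries (10 genes, 3 measures, both temperatures), 8 held a library whose gap to the others took up most of the range of the group, where chance alone gives about 3, or 1 in 20, for continuous values. For 5 of the 8 the values are counts with 3 libraries tied, so that the gap takes up the whole range whatever its size, and that rate does not apply to them. In number of distal peaks, Nfe2l2 had 9 in 37 °C replicate 4 and 8 in the others, Keap1 had 3 in 39 °C replicate 1 and 2 in the others, and Srxn1 had 3 in 39 °C replicate 3 and 2 in the others. Hmox1 had 2 in 39 °C replicate 4 and 4 in the others, and Gclm had 0 in 37 °C replicate 2 and 1 in the others. These are steps of 1 or 2 peaks. The Nqo1 promoter peak was 2625 bp wide in 39 °C replicate 4 and 4075 to 4243 bp in the others. The Srxn1 promoter peak was 6417 bp wide in 37 °C replicate 1 and 2365 to 2865 bp in the others at 37 °C. The Slc7a11 promoter percentile was 33.23 in 39 °C replicate 4 and 51.92 to 55.35 in the others. Of the 8 flags 3 fell on 39 °C replicate 4, the library with the shortest list.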

How the results depend on the processing

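All 10 promoters kept a peak in every library under each alternative tried. Members with a higher promoter percentile at 39 °C numbered 1, or 2 on lists of equal length (7.75% of all genes), and those lower 1, or 2 among libraries under 100 M fragments (58.1%). Members with fewer distal peaks numbered 3 (19.3% of all loci), but 1 on lists of equal length (4.86%), 6 with 50 kb flanks (26.4%), 7 by distal bases (32.3%) and 5 by distal bases on lists of equal length (22.3%). Nqo1 also lost its distal call at −log10 q of at least 5 and with 10 kb flanks. Regions called only at 37 °C fell from 5 to 2 on lists of equal length (6.04% and 2.67% of all regions), where regions with a lower rank at 39 °C fell from 25 to 14 and those with a higher rank rose from 1 to 6 (both added after the data were seen). The share of regions with the core went from 21.8% to 54.0% over whole regions (44.6% of all regions) and 43.7% with TGANNNNGC (36.0%). Within 250 bp it was 26.4%, against 23.3% of all regions. Ranking by fold enrichment gave the same values by construction, since both scores rise with the pileup over one background. Leaving out 1 library in turn, the members lower in percentile numbered 1 to 2 (2 without 37 °C replicate 1, adding Srxn1, with 56.8% of all genes), those higher 1, those narrower 2 to 4, those with fewer distal peaks 3 to 5 (5 without 37 °C replicate 2, with 23.4% of all loci) and with more 0 to 1, regions only at 37 °C 5 to 9 (8 and 9 without 37 °C replicates 2 and 3, with 7.97% and 10.4% of all regions) and only at 39 °C 0 to 1. Replicate numbers did not pair the libraries: deviations of same-numbered libraries correlated at 0.218, -0.113, 0.212 and -0.196 over 13145 genes. With the replicate number as a block in limma, 0 members were higher (Gclm, adjusted p = 0.144) and Nqo1 stayed lower (adjusted p = 0.0155). The exact sign test with the block called 4 members narrower, at its smallest p of 0.125, and 46.4% of all genes. Where a setting ended a call, the cause was not tested beyond the setting itself. Of 418 values of single genes under alternatives, 389 kept their side of the call, 24 gained a call and 5 lost one, and none was reversed. Without counts, differences below about the spread of 4 libraries were not detectable.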
